A study of Homo sapiens with 6 samples.

Results

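Basement membranes are thin matrix sheets beneath epithelia, and 9 genes for their non-collagen proteins are described here in PANC-1 cells after SOX9 siRNA. The genes are TINAGL1, the laminin chains LAMA3, LAMA5, LAMB1, LAMB2, LAMB3 and LAMC1, the proteoglycan HSPG2 and the linker NID1. They were looked up by symbol, and all 9 were present among the 19830 genes of the authors' deposited table. TINAGL1 was chosen for its fall in this comparison and the others for their read counts, so both are given as a description. In the authors' deposited table TINAGL1 was called, at 20.8% of its control level, and the other 8 were not. That is 1 of 9 members, beside 1.81% of all tested genes, and nothing is read from the share because the choice used the same comparison.

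PANC-1 is an established human line from a pancreatic ductal adenocarcinoma, and SOX9 is a DNA-binding factor that marks duct cells and their progenitors in the pancreas. The RNA libraries came from cells given 25 nM SOX9 siRNA, in 2 libraries, or 25 nM control siRNA, in 2 libraries, each harvested 48 hours after transfection with Lipofectamine. All of them are PANC-1 cells of a single line without other stated alterations, and transfected wells were pooled before harvest. The labels do not say whether the libraries come from independent cultures, so the authors' p-values measure a spread that may be technical. The remaining 2 samples of the series, SOX9 ChIP from untreated PANC-1 cells, were not analysed here.

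Laminins are heterotrimers of one α, one β and one γ chain that assemble into a network on the cell surface. Nidogens and heparan sulfate proteoglycans tie this network to that of collagen IV. Cells hold on to it through integrins and dystroglycan. TINAGL1 is a secreted matrix protein related to the papain-type cathepsins and lacks their protease activity.

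The table has no values for single libraries. For each gene it gives the mean normalized count over all libraries and a log2 fold change with a standard error. The numerator is not stated. The sign at SOX9 itself was taken as a fall after SOX9 siRNA, and all directions below depend on that reading. SOX9 stood at 55.9% of control by the authors' deposited table, with a DESeq2 adjusted p of 0.0643, so it was not called at an adjusted p under 0.05. Of 14063 genes with an adjusted p, 254 were called, with 0.868% called higher and 0.939% called lower. The sum of mean normalized counts was 47653185 normalized reads, and the median standard error of these tested genes was 0.215. KRT8, KRT18 and KRT19, keratins of duct epithelium, had mean normalized counts of 203350, 130452 and 99583 in the authors' deposited table. Of the markers of other cell types, endothelial genes did not exceed a mean count of 4.21 in the authors' deposited table, and of the leukocyte genes PTPRC and LYZ had 2.28 and 3.50 while CD14 had 52.2 and ITGAM 105.

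The windows around the annotated starts of TINAGL1 are shown because it was the member that fell after siRNA against a sequence-specific factor. RefSeq (GRCh38.p14) gives TINAGL1 a pair of start sites on the plus strand of chromosome 1, with windows at chr1:31576265-31576564 and chr1:31577895-31578194. Each runs from 250 bases before to 50 bases after the start. Capitals mark a match to the SOX core.
TINAGL1 first start: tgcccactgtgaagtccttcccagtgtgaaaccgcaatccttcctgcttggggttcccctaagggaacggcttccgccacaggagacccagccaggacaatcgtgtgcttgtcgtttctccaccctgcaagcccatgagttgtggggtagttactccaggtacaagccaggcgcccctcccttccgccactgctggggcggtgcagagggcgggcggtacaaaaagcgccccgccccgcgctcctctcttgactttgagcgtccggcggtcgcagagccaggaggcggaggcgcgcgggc
TINAGL1 second start: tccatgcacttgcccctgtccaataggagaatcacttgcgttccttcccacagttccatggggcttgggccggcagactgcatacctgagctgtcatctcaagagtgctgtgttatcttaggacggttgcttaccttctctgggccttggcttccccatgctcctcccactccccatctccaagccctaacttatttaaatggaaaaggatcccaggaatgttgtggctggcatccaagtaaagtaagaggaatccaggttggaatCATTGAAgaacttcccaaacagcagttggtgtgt
The core searched, on both strands, was CAAAG or CAATG preceded by a pair of bases that are each A or T. The second window holds TTCAATG on the opposite strand, at bases 17 to 23 counted from the start, and the first window holds no match. Of 35116 RefSeq windows of this length, 20.4% hold at least 1 match. The other 8 members have 10 annotated windows, and none of the 10 holds one. The windows of TINAGL1 differ in composition, with 22 CG dinucleotides and 64.7% G and C around the first start, and 3 and 50.3% around the second. The deposited counts do not separate transcripts by start, so the start that PANC-1 cells used is not known from them.

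TINAGL1 fell further than any other member. Its mean normalized count in the authors' deposited table was 398. The levels implied by that mean and the fold change were 137 normalized reads in SOX9 siRNA cells and 658 in control cells. The log2 fold change was -2.26 with a standard error of 0.39 in the authors' deposited table, a 95% interval from 12.3% to 35.3% of control. Its DESeq2 adjusted p in the authors' deposited table was 1.33e-05, and TINAGL1 ranked 6 by p among the tested genes. Its fall was the third largest among called genes, and both genes with a larger fall had lower mean counts. In bulk RNA, fewer cells of a type and less RNA per cell cannot be told apart.

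**Figure D1:**
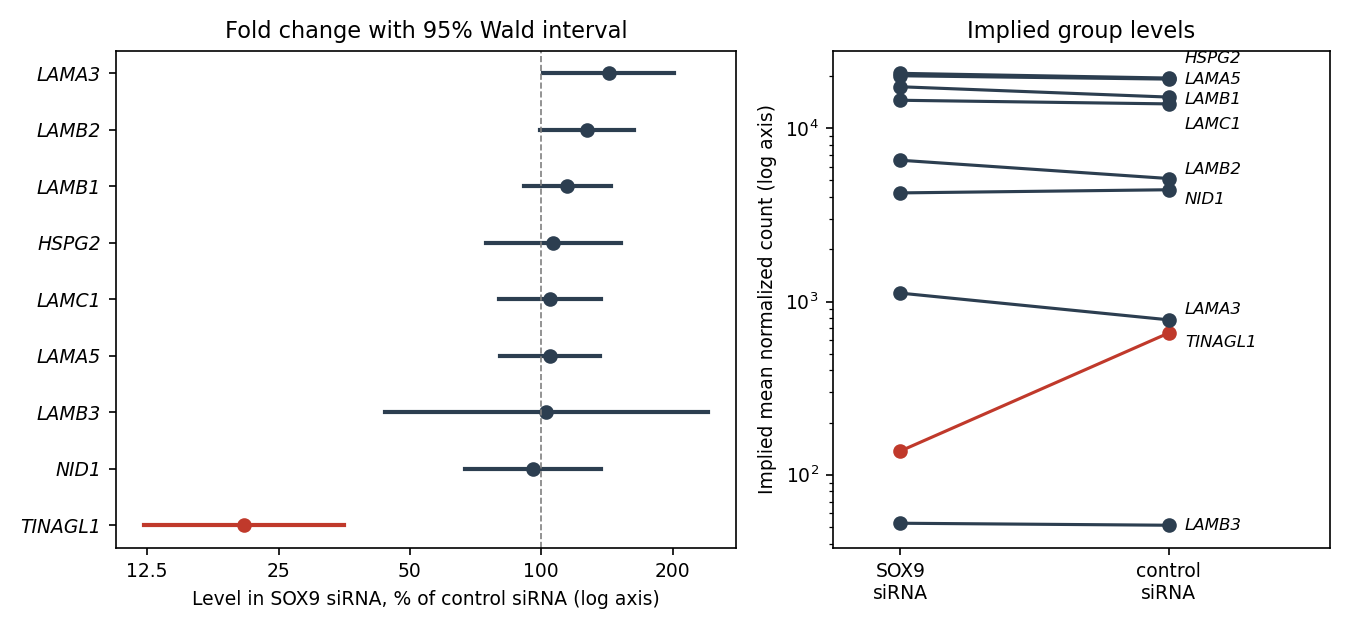
Left, the level of each member in SOX9 siRNA cells as a percentage of control (log axis), with bars for 95% Wald intervals, and right, the mean normalized counts of both siRNA groups implied by the authors' mean and fold change (log axis). TINAGL1, in red, is the called member at 20.8%, and the other 8 lie between 95.9% and 143% with intervals that all sit above its upper bound of 35.3%.

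The 2 laminin α chains did not pass the threshold. LAMA3, the α chain of an epithelial laminin that binds hemidesmosomes, had implied levels of 1118 normalized reads in SOX9 siRNA cells and 784 in control cells. It stood at 143% of control by the authors' deposited table (95% interval 101% to 201%), the highest of the members, with an unadjusted p of 0.0428 and a DESeq2 adjusted p of 0.412. LAMA5, the α chain of laminins with LAMC1 and either LAMB1 or LAMB2, had implied levels of 20113 in SOX9 siRNA cells and 19238 in control cells. LAMA5 was at 105% of control by the authors' deposited table, with an interval from 80.3% to 136%.

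All 3 β chains had values above control, without a call, though LAMB3 turned to a log2 fold change of -0.057 when centred on genes of like mean count. LAMB2 stood at 128% of control by the authors' deposited table (99.6% to 163%) with a DESeq2 adjusted p of 0.463, at implied levels of 6543 in SOX9 siRNA cells and 5130 in control cells. LAMB1, the alternative β chain to LAMB2 in those trimers, was at 115% (91.1% to 144%) in the authors' deposited table, with implied levels of 17378 in SOX9 siRNA cells and 15147 in control cells. LAMB3, which pairs with LAMA3 in the epithelial laminin, was at 103% in the authors' deposited table. Its interval was wide, from 43.7% to 241%, at implied levels of 52.5 in SOX9 siRNA cells and 51.1 in control cells. LAMB3 had few reads, although the set was chosen for read counts: its mean count was 51.8 in the authors' deposited table. Genes outside the set were also well counted, without correction for length: AGRN had a mean count of 14391 and LAMA4 of 1222 in the authors' deposited table.

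LAMC1, the γ chain that carries the nidogen binding site, stood at 105% of control by the authors' deposited table (80.2% to 137%). Its implied levels were 14522 in SOX9 siRNA cells and 13836 in control cells. NID1, which bridges laminin γ1 and collagen IV, was at 95.9% in the authors' deposited table (67.0% to 137%), or a log2 fold change of 0.010 under that centring, with implied levels of 4238 in SOX9 siRNA cells and 4419 in control cells. HSPG2, which encodes perlecan, the heparan sulfate proteoglycan of basement membranes, was at 106% in the authors' deposited table (74.6% to 152%), at implied levels of 20769 in SOX9 siRNA cells and 19511 in control cells. In order of fold change the members ran LAMA3, LAMB2, LAMB1, HSPG2, LAMC1, LAMA5, LAMB3, NID1 and TINAGL1. The intervals of the first 8 overlap one another, and that of TINAGL1 overlaps none of them.

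**Figure D2:**
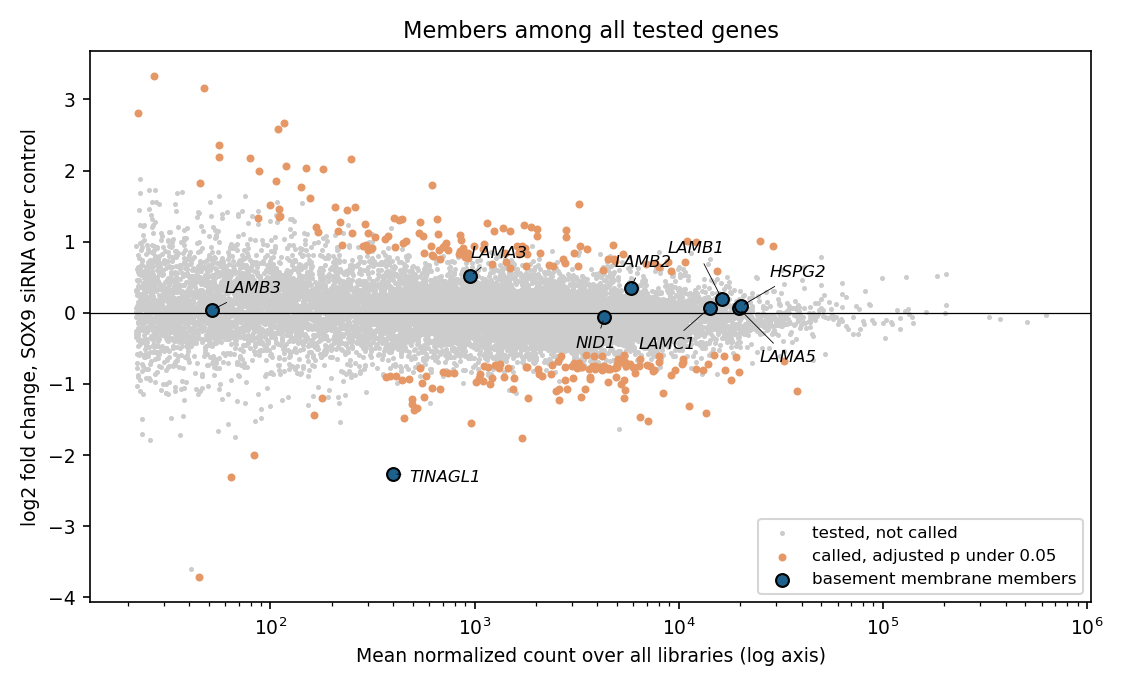
Log2 fold change of every tested gene, SOX9 siRNA over control, against the mean normalized count over all libraries (log axis), with the 254 called genes in orange and the 9 members in blue. TINAGL1 lies at -2.26 and a mean count of 398, below the cloud of genes, and the other 8 members lie within it between -0.06 and 0.51.

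Chains that share a trimer can be read side by side. LAMA3 and LAMB3 were at 143% and 103% in the authors' deposited table. A trimer of LAMA5, LAMB1 and LAMC1 had chains at 105% for LAMA5, 115% for LAMB1 and 105% for LAMC1 in the authors' deposited table. The same trimer with LAMB2 in place of LAMB1 had its β chain at 128% in the authors' deposited table. Differences between chains of a trimer were not tested.

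The width of the intervals limits what the 8 uncalled members can show. For 4 of them the 95% interval lay within a 1.5-fold change in either direction, and for 6 within a 2-fold change. At the size of the smallest called Wald statistic, 3.32, the smallest fold that could have been called was 1.48 for LAMB1, 1.52 for LAMB2, 1.79 for LAMA3 and 4.24 for LAMB3. A smaller change of LAMB3 was not detectable here. Counting error was a small part of these standard errors. Under the negative binomial model, counting alone would give 6.08% of the squared standard error of TINAGL1, 10.2% of that of LAMB3 and between 0.151% and 3.53% of that of the others. The remainder, as a coefficient of variation, was 26.1% for TINAGL1, against 11.7% for LAMB1, the lowest of the set, and 41.3% for LAMB3. It reflects the spread that the authors' DESeq2 model assigned to each gene. The spread between single libraries was not measured.

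**Figure D3:**
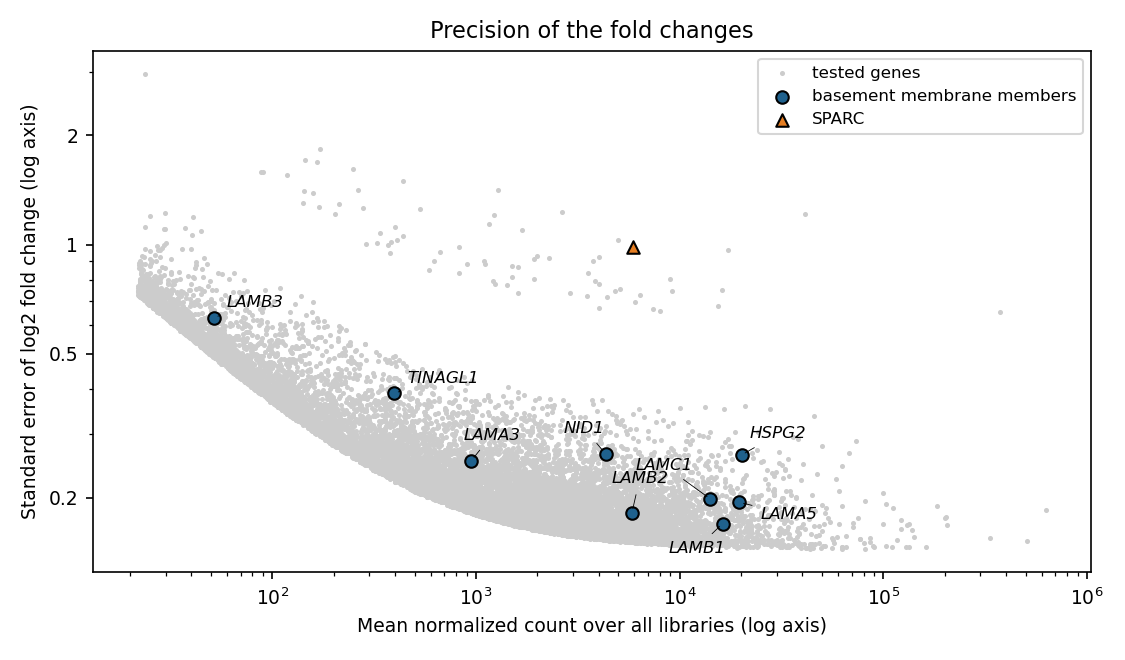
Standard error of the log2 fold change (log axis) against mean normalized count (log axis) for all tested genes, with the 9 members in blue and the matrix protein SPARC as a triangle. HSPG2 and NID1 lie near the upper edge of the main band at 0.262 and 0.264, and SPARC, at 0.99, lies above the genes nearest to it in mean count.

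Among the 500 tested genes nearest to it in mean count, HSPG2 had a larger standard error than 95.4%, NID1 than 95.8% and TINAGL1 than 93.0%. LAMB1 was near the middle, with 51.6%. TINAGL1 had a standard error of 0.389 in the authors' deposited table, against a median of 0.258 for the genes nearest to it in mean count.

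The members' neighbours on the chromosome were looked up by gene order. Of the 9 genes, 5 lie on chromosome 1, which holds 10.2% of the tested genes that could be placed: TINAGL1, LAMB3, LAMC1, HSPG2 and NID1. In the authors' deposited table the nearest tested genes on either side of TINAGL1 were SERINC2, with a log2 fold change of 0.00 and a standard error of 0.40, and PEF1, with -0.24 and 0.18. Neither was called. No tested neighbour of any member was called, with the lowest DESeq2 adjusted p in the authors' deposited table at 0.410 for DHX9 beside LAMC1. RefSeq places an overlapping gene on 8 of the 9 members, all but NID1, and for TINAGL1 it is LOC105378626, whose reads were not analysed here. LAMA5 overlaps the annotated antisense gene LAMA5-AS1, at a mean count of 94.2, and HSPG2 overlaps LDLRAD2, at 53.7, in the authors' deposited table. The use of strand in counting is not stated, so values of members with an overlapping gene, TINAGL1 included, are uncertain to that extent.

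Genes of basement membranes, the members included, were grouped by role, and papain family genes were added as a further list. These functional lists were chosen with earlier results of these data known. Over all 12 lists, 101 genes were tested. None rose and 3 fell: TINAGL1, which was chosen for its fall, ITGA6 and CTSV, which is only in the papain family list. Of all tested genes 0.868% were called higher and 0.939% lower. Nothing is read from the counts of calls, over the lists or within any of them. The median log2 fold change of the 101 genes was 0.07, against -0.02 over all tested genes. At an unadjusted p under 0.05 there were 16 of the 101, against 1565 of all 14063.

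Laminin chains outside the set were not called either, beside 1.81% called of all tested genes. Of all 10 tested laminin chains, members included, none was called by the authors' DESeq2, 1 had an unadjusted p under 0.05, and the median log2 fold change was 0.05. LAMA4 stood at 101% of control, LAMC3 at 88.6% and LAMA2 at 99.3% in the authors' deposited table. LAMA1 and LAMB4 had mean counts of 2.16 and 5.15 in the authors' deposited table and were not tested. Among linkers and proteoglycans, 0 of 5 were called and 0 had an unadjusted p under 0.05. NID2, the second nidogen, was at 116% (56.4% to 240%), and AGRN, the heparan sulfate proteoglycan agrin, at 102% (83.3% to 124%) in the authors' deposited table. COL18A1, a collagen that carries heparan sulfate and the gene with the most reads in that list, without correction for length, was at 123% (94.4% to 160%) in the authors' deposited table.

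Collagens of basement membranes had 0 of 6 called and 0 at an unadjusted p under 0.05, with a median of 0.19. COL4A1 and COL4A2, which form the main collagen IV trimer, were at 95.7% and 107% of control by the authors' deposited table. The list of other non-collagen proteins, TINAGL1 included, had 6 tested genes with a median of 0.03. Besides TINAGL1, none of them was called. PAPLN, which encodes the matrix protein papilin, had the highest value among the tested genes of that list, at 171% of control by the authors' deposited table (118% to 247%), with a DESeq2 adjusted p of 0.128; it was named after its value was seen.

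**Figure D4:**
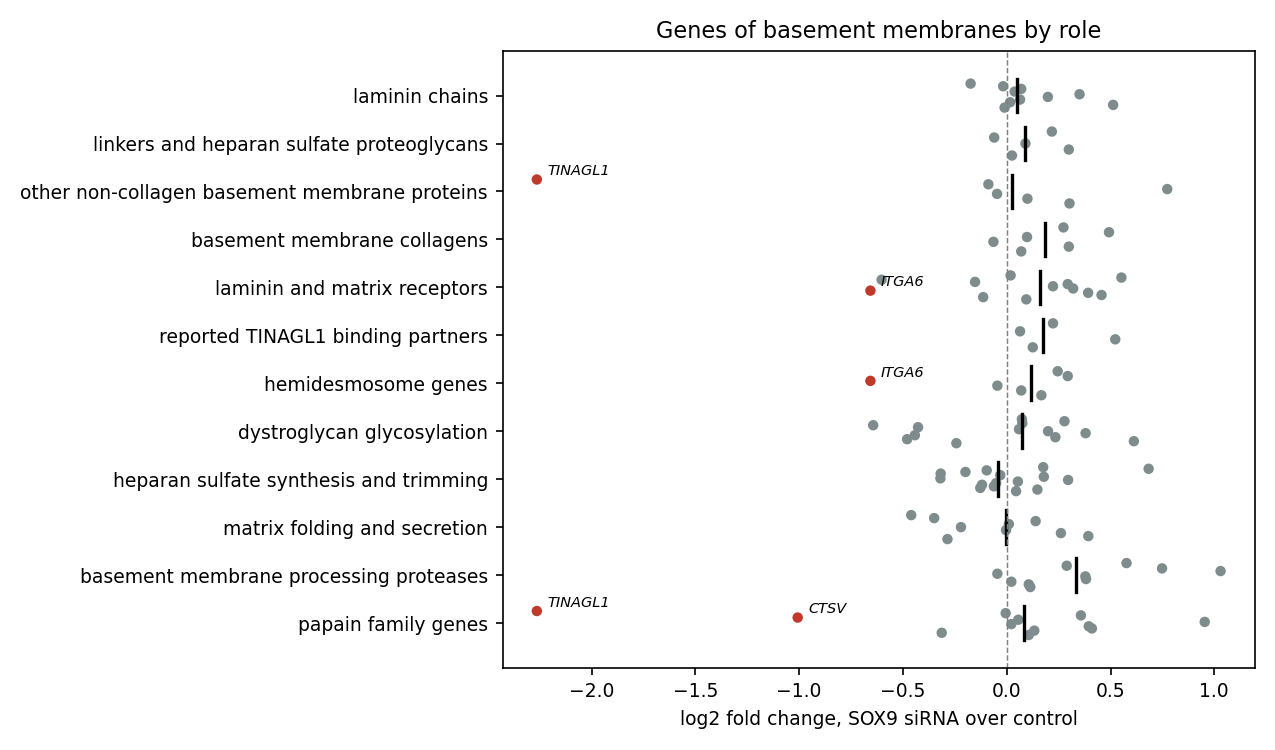
Log2 fold change, SOX9 siRNA over control, of each tested gene in 12 lists of basement membrane or papain family genes by role. Called genes are in red, and black bars mark list medians. TINAGL1 at -2.26, CTSV at -1.01 and ITGA6 at -0.66 are the called genes, and list medians lie between -0.04 and 0.33.

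Of the receptors, ITGA6 fell. ITGA6 encodes the α6 integrin subunit, which binds laminins with β1 or, in hemidesmosomes, with β4. Its implied levels were 8167 normalized reads in SOX9 siRNA cells and 12875 in control cells. In the authors' deposited table it was at 63.4% of control (50.6% to 79.6%) with a DESeq2 adjusted p of 0.0103. The call ended under 4 of 9 alternatives, among them an empirical null with an adjusted p of 0.0692. Its partners were not called: ITGB4 was at 123% (96.2% to 156%) and ITGB1, the receptor gene with the most reads, at 117% (95.7% to 142%) in the authors' deposited table. The 12 tested receptor genes had 1 fall, 0 rises and a median of 0.16. ITGA6 was also the 1 fall among 6 hemidesmosome genes, of which PLEC, with the most reads, was at 119% (92.6% to 152%) in the authors' deposited table.

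Binding partners reported for TINAGL1, from studies of other cells, are integrin subunits and EGFR. None of the 4 was called by the authors' DESeq2, and 1 had an unadjusted p under 0.05. ITGA5 stood at 144% of control (109% to 189%), ITGAV at 105% (82.4% to 133%) and EGFR at 109% (86.5% to 138%) in the authors' deposited table. ITGA5 had a DESeq2 adjusted p of 0.194 there.

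Enzymes that build or process the matrix were not called, in lists of 9 to 16 tested genes, beside 1.81% called of all tested genes. Nothing is read from 0 calls in lists this small. Dystroglycan glycosylation genes had 0 calls among 13, with 3 at an unadjusted p under 0.05, a median of 0.07 and POMGNT1, with the most reads, at 104% of control by the authors' deposited table. Heparan sulfate genes had 0 among 16, with 0 at an unadjusted p under 0.05, a median of -0.04 and NDST1 at 87.1% in the authors' deposited table. Folding and secretion genes had 0 among 9, with 2 at an unadjusted p under 0.05, a median of 0.00 and P4HB at 99.8% in the authors' deposited table. Processing proteases had 0 among 10, with 0 at an unadjusted p under 0.05, the highest list median at 0.33, and PLAU at 122% (94.7% to 158%) in the authors' deposited table.

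Among the papain-type cathepsins, to which TINAGL1 is related in sequence, CTSV fell. CTSV, a lysosomal protease close to CTSL, had implied levels of 793 normalized reads in SOX9 siRNA cells and 1594 in control cells. It was at 49.8% of control (35.7% to 69.3%) in the authors' deposited table, with a DESeq2 adjusted p of 0.00598, a call that ended under 2 of 9 alternatives. CTSL was at 102% (79.0% to 131%) and CTSB, with the most reads of the list, at 108% (85.5% to 136%) in the authors' deposited table. Reads shared between CTSV and CTSL were not measured. The list had 2 falls and 0 rises among 12 tested genes, with a median of 0.08.

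Markers of cell type moved beside these values. In the authors' deposited table EPCAM, an epithelial adhesion gene, fell to 29.5% of its control level, and COL1A1, a fibrillar collagen chain, rose to 197%. KRT8, KRT18 and KRT19 were at 147%, 141% and 141% and COL3A1 at 80.9% by the authors' deposited table, without a call. Of 5 tested duct epithelial markers, SOX9 included, 1 fell and 0 rose by call, with a median of 0.50. All 5 had an unadjusted DESeq2 p under 0.05, 3 of them above control and 2 below. Of 5 tested fibroblast and stellate markers 1 rose and 0 fell by call, with 1 at an unadjusted p under 0.05 and a median of 0.06. Mean counts of the fibroblast list in the authors' deposited table were 449 for COL1A1, 322 for COL3A1, 177 for THY1, 49.8 for ACTA2 and 32.0 for PDGFRB, and between 1.19 and 4.37 for COL1A2, DCN, LUM and POSTN. Of the leukocyte list, 2 genes were tested and neither was called: CD14 was at 232% and ITGAM at 188%, with DESeq2 adjusted p-values of 0.440 and 0.513 in the authors' deposited table. The part of these markers in the fall of TINAGL1 was not tested.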

How the data were processed

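RNA from PANC-1 cells was compared between 2 SOX9 siRNA and 2 control siRNA libraries. Libraries were stranded total RNA, sequenced to 2 x 100 bp, per the labels' protocols. HISAT2 2.0.5, featureCounts and DESeq2 1.18.1 are listed in the submitters' processing notes. Settings, the annotation and the build used for RNA are not given in the sources used here. The mean normalized count is the authors' signal after scaling by size factors, per the file headers. The deposited fold change and its standard error are on the log2 scale. The deposited score is the Wald statistic, their ratio, and the deposited p-values are those of the Wald test, raw and adjusted.

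Values were read with Python 3.11.15 and pandas 2.3.3. Genes at an adjusted p under 0.05 were called, among the 14063 genes with one. Intervals are 1.96 standard errors each way. Implied group levels assume that the deposited mean is the average of both groups and the fold change their ratio. Counting error is the Poisson part of the negative binomial variance at these levels, with 2 libraries per group, and the remainder gives the coefficient of variation. No depth of single libraries was used. Intervals measure counting error and the spread between libraries as estimated by the authors' DESeq2, and no other source of error. Promoter windows came from RefSeq (GRCh38.p14) by symbol, for 9 of 9 members. Of 123 genes in the role lists 120 were matched, some by older symbols.

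The members and lists were chosen with earlier results of these data known, so no test was made over them. Named genes were all members, all laminin chains, SOX9, the called gene and the gene with the most reads of each list, and neighbours of TINAGL1; further genes are named as context. A gene that this rule selects is left out of the text. The adjustment step and the formula for implied group levels were tested on simulated data, and the intervals were not. Alternatives were other adjustments, thresholds, a mean count minimum, a null of up to 1.5-fold, centring and an empirical null.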

Additional observations from a re-analysis of the deposited data

How the results depend on the processing

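TINAGL1 stayed the 1 called member under all 9 alternatives, with an adjusted p from 8.73e-06 to 0.0274. Every alternative reuses the same deposited fold changes, standard errors and p-values. TINAGL1 was chosen for its fall in them, so its staying called is a description and not independent support. ITGA6 lost its call at a threshold of 0.01, with Holm adjustment, against a 1.5-fold null and with an empirical null (adjusted p 0.0692). CTSV lost its call with Holm adjustment (0.505) and against a 1.5-fold null. The list count of 3 became 1 with Holm adjustment and 1 against a 1.5-fold null. Over all genes the 254 calls became 109 at a threshold of 0.01, 32 with Holm adjustment, 5 against a 1.5-fold null and 96 with an empirical null. Centring on genes of like mean count, in 10 bins whose medians ran from -0.07 to 0.10, turned the sign of LAMB3 to -0.057 and of NID1 to 0.010. That centring was planned for the members' fold changes and added after seeing the data for counts of calls. SOX9 passed at a threshold of 0.1. No paired analysis was possible because the table holds no values per library, and leaving out libraries was not run for the same reason. Levels per coding length were not run for lack of coding lengths, so mean counts of different genes are read counts, not levels per length. Among the members, LAMB3 had the lowest mean count, at 51.8. Counting error would still give only 10.2% of its squared standard error.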

Other observations

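SPARC, a collagen-binding matrix protein of basement membranes and stroma, had a mean normalized count of 5932 in the authors' deposited table and a fold change that could not be resolved. It stood at 94.1% of control, with an interval from 24.6% to 359% in the authors' deposited table. Its standard error of 0.99 was larger than that of all 500 tested genes nearest to it in mean count, whose median was 0.169. Counting error would give 0.0361% of its squared standard error. Its level in single libraries was not analysed here.

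SDC1, a syndecan that binds matrix through heparan sulfate and that was named after its value was seen, was at 65.8% of control (49.6% to 87.4%) in the authors' deposited table, with a DESeq2 adjusted p of 0.122. ITGA3, whose α3 subunit binds laminins with β1, was at 131% (105% to 163%) in the authors' deposited table, with a DESeq2 adjusted p of 0.253. Neither was called. ITGA3 was also named after its value was seen.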
